A study of Macaca mulatta with 8 samples.

Results

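Amphiregulin (AREG) and betacellulin (BTC) are growth factors of the epidermal growth factor (EGF) family, and SPRED2 is an inhibitor that acts further down the same pathway. Their signal was read in granulosa cells of the rhesus macaque, the somatic cells of the ovarian follicle, before and after an ovulatory stimulus with human chorionic gonadotropin (hCG). The members are 3 of the 14132 genes that have a probe set (a group of short probes read as 1 value) with a single symbol in the platform annotation. They were read by 6 of the 52766 probe sets tested. AREG has 1 probe set, BTC has 2 and SPRED2 has 3, and each is described on its own.

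EGF-like ligands are made as proteins anchored in the membrane, and proteases of the ADAM family cut them free. The freed ligand binds the EGF receptor on the same or on neighbouring cells and switches on RAS and the kinases RAF, MEK and ERK. In the ovary, mural granulosa cells are known to make such ligands after the surge of luteinizing hormone, which hCG imitates. The ligands then act on the granulosa and cumulus cells of the follicle, where they take part in expansion of the cumulus and in the resumption of meiosis by the oocyte. SPRED2 is known to bring the RAS-inactivating protein neurofibromin to the membrane, which lowers ERK activity.

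The 8 arrays fall into 2 groups of 4 samples. The group called PM-GC had been under follicle-stimulating hormone (FSH) alone, and the group called VVM-GC under FSH followed by hCG in the animal, with maturation in vivo. The series design calls all of them mural granulosa cells, whereas the label on the source of each sample names the cumulus-oocyte complex. Neither the labels nor the design text used here states the time from hCG to collection, the number of animals, pooling or a batch, so p-values measure only the spread between these samples, which may be partly technical.

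Values are log2 intensities, on which a difference of 1 is a doubling, and changes are after minus before hCG. The arrays had medians of 5.44 to 5.54. Correlations between arrays across probe sets were 0.974 to 0.988 within groups and 0.935 to 0.957 between them. Of 15 granulosa markers 12 were measured, and their mean was 10.15 to 10.56 before and 8.85 to 9.10 after hCG, with 11 of the 12 lower by test. The highest of them was INHA, the alpha subunit of inhibin, at 14.07 ± 0.08 before and 13.50 ± 0.19 after hCG (SD, n = 4). FOXL2, FSHR and LHCGR, which are also on this marker list, lacked an unambiguous probe set and were not analysed here. In bulk samples such as these, fewer cells of a type and less RNA per cell cannot be told apart.

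Of the 6 member probe sets, 3 were higher after hCG, 1 was lower and 2 did not pass the threshold of 0.05 on the adjusted p from limma. Over all 52766 probe sets, 7.24% were higher and 6.85% lower, or 14.1% in either direction. The groups did not overlap for 4 of the 6 member probe sets, against 19.3% of all probe sets. The increase of AREG was the 5th largest of all probe sets. The members' changes ranged from a decrease of the brightest SPRED2 probe set to this increase, and the probe sets of SPRED2 did not move alike.

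**Figure D1:**
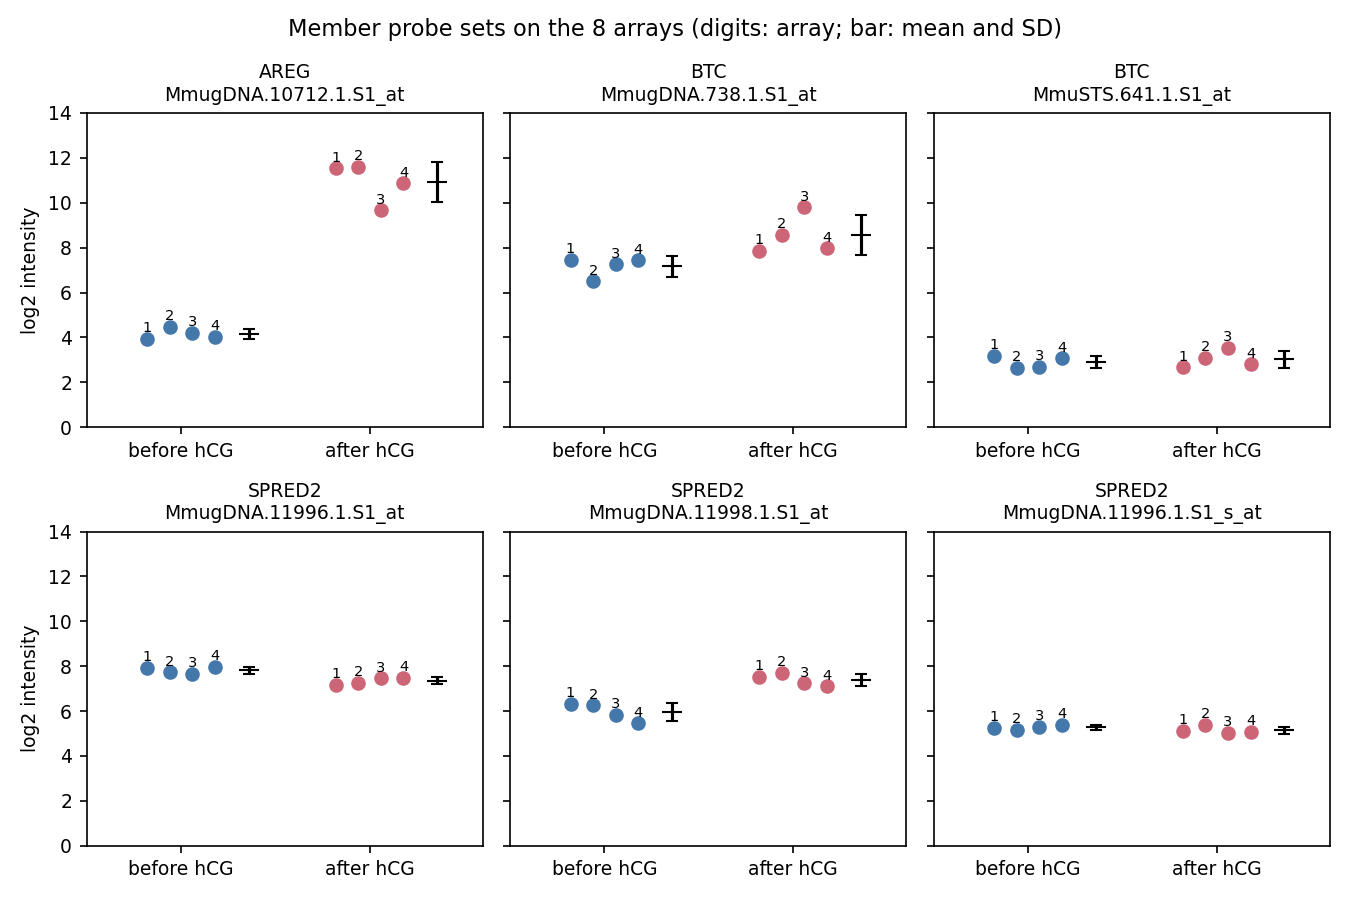
Log2 intensity of the 6 member probe sets on each of the 8 arrays, with the 4 arrays before hCG in blue, the 4 after hCG in red, digits for the array and a bar for the mean and SD of the group. AREG lies at 3.93 to 4.46 before and 9.66 to 11.60 after hCG, the BTC probe set MmugDNA.738.1.S1_at is highest on array 3 after hCG, and the SPRED2 probe sets differ in direction.

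AREG, a ligand of the EGF receptor, was in the lower part of the signal range before hCG and among the bright probe sets after it. Its probe set, MmugDNA.10712.1.S1_at, read 3.93, 4.46, 4.20 and 4.01 on arrays 1 to 4 before hCG and 11.53, 11.60, 9.66 and 10.86 on arrays 1 to 4 after hCG. All 4 arrays after hCG were above all 4 before, and the nearest values of the groups lay 5.20 apart. The means were 4.15 ± 0.24 before and 10.91 ± 0.90 after hCG (SD, n = 4). The change was 6.77 (SE 0.37, 95% interval 5.93 to 7.60, limma adjusted p = 4.93e-06), or 109-fold. The exact two-sided permutation test gave p = 0.0286, the smallest that 4 against 4 arrays allow.

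On the linear scale AREG read 15.2 to 22.0 before and 810 to 3110 after hCG. Before hCG its value stood between the 20.8th and 29.5th percentile of the probe sets of each array, and after hCG between the 92.9th and 98.6th. Low values on such arrays are set partly by the background correction, and the deposited table holds no detection calls. A level before hCG is therefore not established, and the fold depends on it. With 32 added to every intensity before taking log2, which shrinks differences at low signal, the increase of AREG was 5.30 (limma adjusted p = 0.000322).

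The arrays after hCG differed more in AREG than those before, with a range of 1.94 against 0.53. Array 3 after hCG was the lowest of its group. On the same array the difference between the 3' and 5' control probe sets of ACTB, a reading often used for RNA integrity, was 5.18, against 4.47 to 4.83 on the other 3 arrays after hCG and 4.70 to 4.80 before. The same reading for GAPDH was 2.75 on this array, against 2.52 to 2.68 on the other 3 and 2.63 to 2.79 before. The group means of the ACTB reading were 4.75 ± 0.05 and 4.77 ± 0.31 (SD, n = 4), with p = 0.914 by the exact permutation test. Without array 3 after hCG the increase of AREG was 7.18, and with any 1 array left out it was 6.54 to 7.18, past the threshold each time.

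BTC, which binds the EGF receptor and the related receptor ERBB4, was higher after hCG by 1 of its 2 probe sets. That probe set, MmugDNA.738.1.S1_at, read 7.45, 6.50, 7.26 and 7.43 on arrays 1 to 4 before hCG and 7.87, 8.57, 9.80 and 7.97 after hCG. The groups did not overlap, but only 0.41 separated the highest array before from the lowest after hCG, and array 3 stood above the others. The means were 7.16 ± 0.45 and 8.55 ± 0.89 (SD, n = 4). The change was 1.39 (SE 0.40, 95% interval 0.50 to 2.28, limma adjusted p = 0.0453), or 2.62-fold, with an exact permutation p = 0.0286.

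The call of BTC lay just inside the threshold. It was lost without array 1, 2, 3 or 4 before hCG (limma adjusted p = 0.0721, 0.117, 0.0861 and 0.0784) and without array 2 after hCG (0.0926). Without array 3 after hCG the increase was 0.97 and still passed (limma adjusted p = 0.0384). The direction was the same in every one of these fits, with changes of 0.97 to 1.62.

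Array 3 after hCG, the highest in BTC and the lowest in AREG of its group, also differed in markers of other cells. The mean of the 9 measured leukocyte markers, out of 11 listed, was 5.55 on it, against 6.61 to 7.60 on the other arrays after hCG and 6.80 to 7.21 before. The mean of the 8 measured endothelial markers, out of 9 listed, was 5.43 on it, against 5.74 to 6.04 and 5.54 to 5.79. Other lists were high on it. The stromal mean was 5.90, against 5.61 to 5.84 and 5.66 to 5.82. The surface epithelium mean was 6.76, against 6.33 to 6.70 and 6.09 to 6.32. Its granulosa mean, 9.10, was the highest after hCG. Its theca mean, 5.16, and oocyte mean, 5.60, were the lowest after hCG. Whether these differences bear on its BTC or AREG value was not tested.

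The other BTC probe set, MmuSTS.641.1.S1_at, read 3.17, 2.65, 2.68 and 3.06 before and 2.66, 3.09, 3.54 and 2.80 after hCG. The groups overlapped, and these values stood between the 2.13th and 15.4th percentile of their arrays. The change was 0.13 (SE 0.20, 95% interval -0.32 to 0.59, limma adjusted p = 0.72, exact permutation p = 0.543). Array 3 after hCG was the highest here too. The dimmer minus the brighter BTC probe set was -4.27 ± 0.31 before and -5.52 ± 0.51 after hCG (SD, n = 4), which mostly restates the values of the brighter one, since the dimmer is near the bottom of the signal range. The mean of both probe sets differed by 0.76 and did not pass (limma adjusted p = 0.0929).

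In the gene table of the RefSeq assembly T2T-MMU8v2.0, BTC, AREG, EREG and EPGN, all genes of EGF-like ligands, follow each other as protein-coding genes on 1 chromosome. EREG (epiregulin) and EPGN (epigen) lacked an unambiguous probe set and were not analysed here. PARM1, the measured protein-coding gene on the other side of BTC, was at 6.22 ± 0.25 before and 6.34 ± 0.17 after hCG (SD, n = 4, change 0.12, 95% interval -0.21 to 0.45, limma adjusted p = 0.656). RCHY1, a ubiquitin ligase gene and the third protein-coding gene from BTC on that side, fell by 0.78 (limma adjusted p = 0.0299). That value is from the brightest of its 5 probe sets. Of the 3 protein-coding genes on either side of SPRED2, 5 were measured, each given by its brightest probe set (of 3 for RAB1A and 5 for ACTR2). ETAA1 differed by -0.02, MEIS1 by -0.25, ACTR2 by 0.63 and CEP68 by -0.32 (limma adjusted p = 0.956, 0.297, 0.108 and 0.199), and RAB1A, a GTPase of vesicle transport, rose by 1.36 (0.000199).

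SPRED2, the inhibitor of RAS and ERK activity, was not read alike by its 3 probe sets. Probe set MmugDNA.11998.1.S1_at was higher after hCG, MmugDNA.11996.1.S1_at was slightly lower, and MmugDNA.11996.1.S1_s_at did not pass. By their names the last 2 come from the same design sequence, and the suffix s_at marks probes shared by more than 1 transcript. Which transcripts each of the 3 reads was not analysed here.

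MmugDNA.11998.1.S1_at read 6.33, 6.25, 5.82 and 5.45 on arrays 1 to 4 before hCG and 7.53, 7.70, 7.23 and 7.10 after hCG. Every array after hCG was at least 0.78 above every array before. The means were 5.96 ± 0.41 and 7.39 ± 0.27 (SD, n = 4), a change of 1.43 (SE 0.21, 95% interval 0.96 to 1.90, limma adjusted p = 0.0015), or 2.69-fold, with an exact permutation p = 0.0286. With any 1 array left out the increase was 1.26 to 1.55 and passed.

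MmugDNA.11996.1.S1_at, the SPRED2 probe set with the highest mean signal, read 7.91, 7.72, 7.64 and 7.98 before and 7.17, 7.27, 7.45 and 7.49 after hCG. All arrays after hCG were below those before, with 0.15 between the nearest values. It fell by 0.46 (SE 0.12, 95% interval -0.74 to -0.19, limma adjusted p = 0.0323), from 7.81 ± 0.16 to 7.35 ± 0.15 (SD, n = 4). This small decrease did not pass without array 1, 2 or 4 before hCG (limma adjusted p = 0.0889, 0.0523 and 0.0879) or, among those collected after the stimulus, without array 1 or 2 (0.0796 and 0.083).

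MmugDNA.11996.1.S1_s_at read 5.26, 5.15, 5.29 and 5.37 before and 5.10, 5.38, 5.02 and 5.07 after hCG. The groups overlapped, and the change was -0.12 (95% interval -0.38 to 0.13, limma adjusted p = 0.534).

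The probe sets of SPRED2 were also set against each other on each array. MmugDNA.11998.1.S1_at minus MmugDNA.11996.1.S1_at was -1.85 ± 0.48 before hCG and 0.05 ± 0.41 after it (SD, n = 4). The shift was 1.89, with an exact permutation p = 0.0286 and an adjusted p = 0.0429 over the 3 pairs of probe sets of 1 gene compared. This p is the smallest possible. It was fixed once the groups separated in opposite directions for the 2 probe sets, so it adds nothing to their own values. The difference between the 2 probe sets that share a design sequence shifted by 0.34 and did not pass (exact permutation p = 0.0857, adjusted p = 0.0857). Of 6375 genes with several probe sets, 57 (0.894%) had at least 1 probe set higher and another lower, as SPRED2 had, and 1692 (26.5%) had some but not all past the threshold, as BTC and SPRED2 had. The mean of the 3 SPRED2 probe sets differed by 0.28 (limma adjusted p = 0.07).

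**Figure D2:**
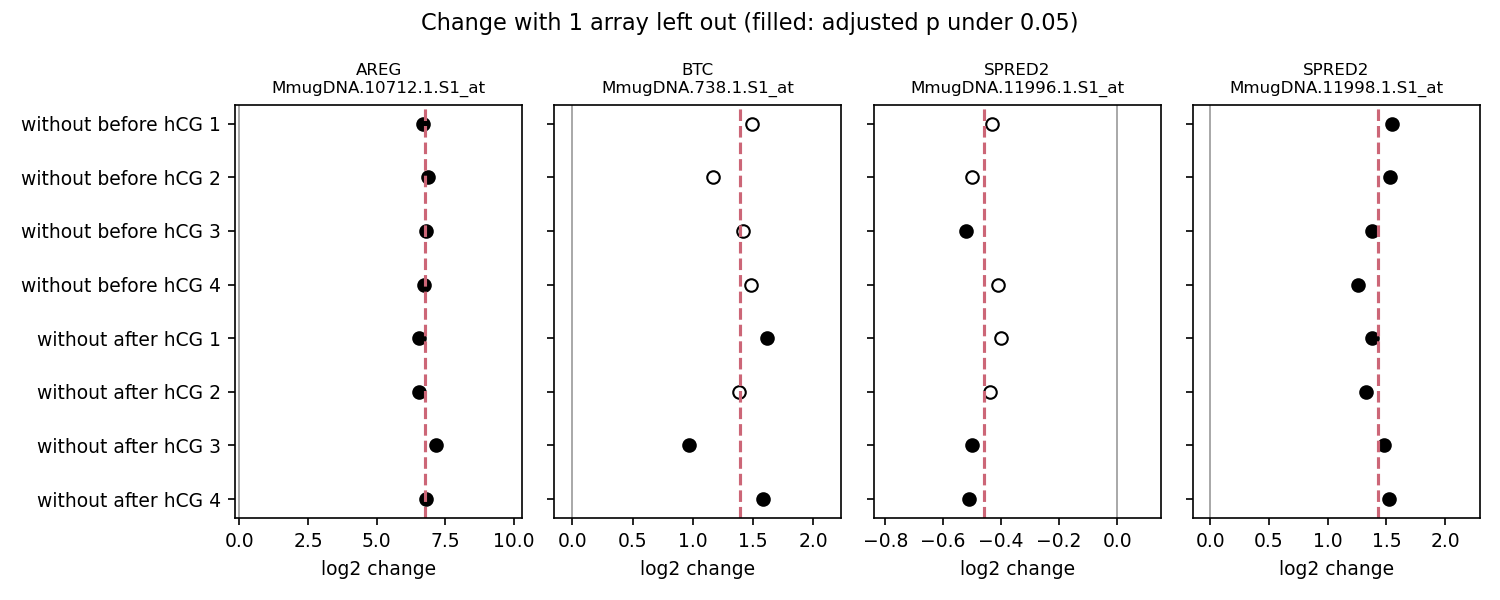
Log2 change after minus before hCG of 4 member probe sets, each with 1 of the 8 arrays left out in turn; filled points passed an adjusted p of 0.05, open points did not, and the dashed line marks the change with all arrays. AREG and SPRED2 MmugDNA.11998.1.S1_at are filled throughout, whereas BTC and SPRED2 MmugDNA.11996.1.S1_at are filled in 3 of 8 fits each.

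The remaining genes of the pathway were taken from lists by role. Of 83 listed genes 60 were measured, and each is counted by the one with the highest mean signal. Of the 60, 16 (26.7%) rose, 1 fell and 43 did not pass, against 10.4% higher and 11.1% lower among all 14132 genes counted this way. With 1 array left out, 13 to 18 rose and 1 to 3 fell: 3 fell without array 3 after hCG, and 2 without array 1 or array 4 after hCG. After repeated quantile normalization 4 fell, with dim probe sets left out 2, and by the mean of all probe sets of a gene 3. The median change of the 60 was 0.14, and that of all genes -0.09. The lists were chosen with earlier results of these data known. The 16 include PTX3, TNFAIP6 and HAS2, which were already known to rise, so part of that share was fixed in advance.

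No other measured ligand passed the threshold. HBEGF, heparin-binding EGF-like growth factor, was at 6.50 ± 0.13 before and 6.96 ± 0.27 after hCG (SD, n = 4, limma adjusted p = 0.0709). Without array 3 after hCG its difference of 0.46 became 0.57 and passed (limma adjusted p = 0.0255), while its second probe set differed by -0.32 (adjusted p = 0.247). TGFA, transforming growth factor alpha, differed by -0.22 (95% interval -0.55 to 0.10) and EGF itself by 0.12 (95% interval -0.19 to 0.43). The neuregulins NRG1, NRG2, NRG3 and NRG4, ligands of ERBB3 and ERBB4, differed by -0.29 to 0.05. The highest upper end among the intervals of these 7 ligands was 0.79, that of HBEGF, whereas the interval of AREG starts at 5.93.

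None of the 3 measured receptors passed. EGFR, the receptor of AREG and BTC, read 6.83, 6.69, 6.46 and 6.23 before and 6.53, 7.81, 7.01 and 6.84 after hCG, with overlap between the groups. Its difference was 0.50 (95% interval -0.07 to 1.06, limma adjusted p = 0.243). Without array 2 after hCG, the highest at 7.81, the difference was 0.24. ERBB2, which pairs with the other receptors, differed by 0.35 (95% interval -0.07 to 0.78) and ERBB3 by 0.01 (95% interval -0.27 to 0.28). The second probe set of ERBB2 differed by -0.29 (95% interval -0.65 to 0.08). ERBB4 was not analysed here.

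**Figure D3:**
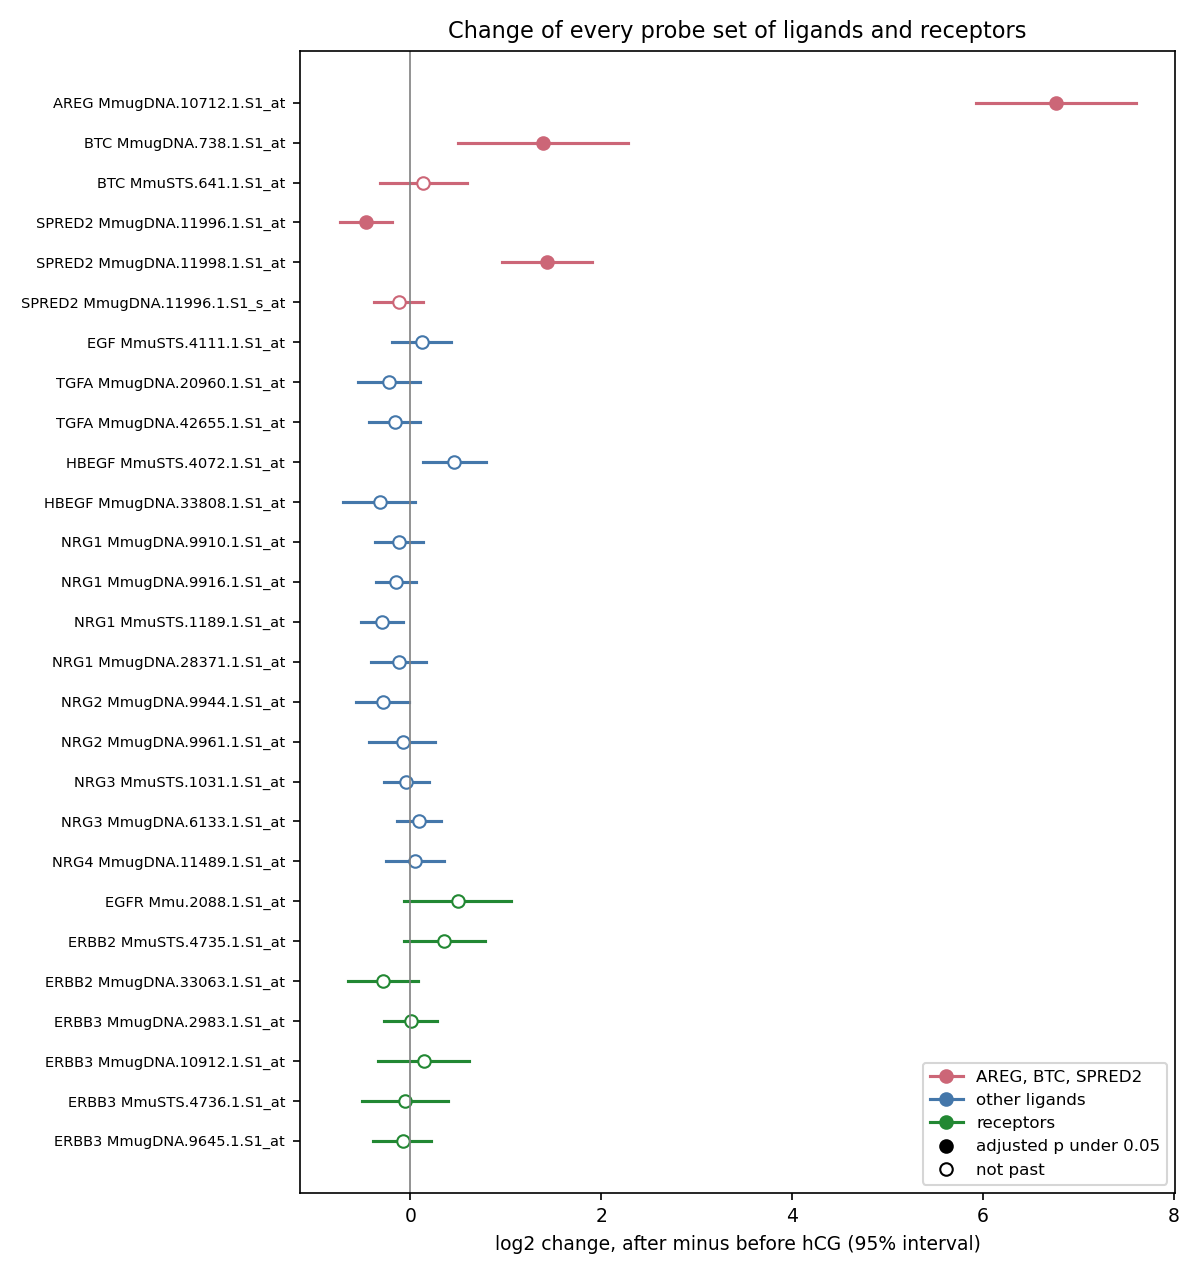
Log2 change after minus before hCG, with 95% intervals, of every probe set of AREG, BTC and SPRED2 (red), of the other measured ligands (blue) and of the measured receptors (green). Filled points passed an adjusted p of 0.05. AREG at 6.77 stands far to the right, and all blue and green points are open.

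Genes of ligand release were tested with 6 of 7 measured and none past the threshold. ADAM10 and ADAM9, proteases of the ligand-cutting family, differed by 0.29 and 0.50 (limma adjusted p = 0.383 and 0.228), and ADAM17 was not analysed here. RHBDF2, which helps ADAM17 mature, was at 8.65 ± 0.15 before and 8.17 ± 0.32 after hCG by its brightest probe set (SD, n = 4, limma adjusted p = 0.086). Its other probe set, named here after its values were seen, fell by 2.47 (SE 0.40, limma adjusted p = 0.00246). RHBDF1, of the same list, differed by 0.70 by its brightest probe set, without overlap between the groups (limma adjusted p = 0.059). Its other probe set differed by 0.10. ADAM12 and RHBDL2 differed by -0.61 and -0.14 (limma adjusted p = 0.205 and 0.452).

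The cascade from receptor to ERK had 15 measured genes, of which 6 rose and 1 fell, with a median change of 0.37. MAP2K1, the kinase MEK1, read 10.36, 10.64, 10.55 and 10.11 before and 11.49, 11.14, 11.32 and 11.85 after hCG, an increase of 1.03 (SE 0.17, limma adjusted p = 0.00305). PTPN11, a phosphatase that RAS activation needs, rose by 1.01, SHC1, an adaptor, by 0.82, and SOS1, which loads RAS with GTP, by 0.66. SOS1 passed by 1 of 6 probe sets, PTPN11 by 1 of 3 and SHC1 by 1 of 2. KSR1, a scaffold for RAF, MEK and ERK, was the gene that fell, by 2.52 (SE 0.25, limma adjusted p = 0.000151), and 2 of its 3 probe sets were lower. NRAS, the brightest of those that did not pass, differed by -0.34 (limma adjusted p = 0.174), and after repeated quantile normalization by -0.46, which passed (0.0452).

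Among the feedback inhibitors other than SPRED2, 3 of the 13 that were measured rose and the other 10 did not pass, with a median change of 0.26. SPRY1, a Sprouty protein related to SPRED2, read 6.47, 6.53, 6.81 and 6.62 before and 9.42, 9.97, 9.35 and 10.98 after hCG, so the groups lay far apart. It rose by 3.32 (SE 0.31, limma adjusted p = 0.000107). LRIG1, a membrane protein that promotes breakdown of EGF receptors, rose by 3.21 (SE 0.32, limma adjusted p = 0.000147), by 1 of its 3 probe sets. CBLB, a ubiquitin ligase of activated receptors, rose by 1.40 (limma adjusted p = 0.0106), by 1 of 2. SOCS5 differed by 0.03 (limma adjusted p = 0.936). SPRED1 and SPRED3, the relatives of SPRED2, were not analysed here.

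Of 13 measured transcription factors and other genes downstream of ERK, 4 rose and 9 did not pass, with a median change of -0.04. CEBPB, a transcription factor that ERK activates in granulosa cells, rose by 2.34 (SE 0.24), ELK3, a target of ERK, by 2.09 (SE 0.17), and PHLDA1, a protein induced by ERK, by 1.27 (SE 0.24). CEBPB passed by both of its probe sets, ELK3 by 1 of 2 (the other at -0.16), PHLDA1 by 2 of 5 and ETS2 by 1 of 2. ETS2 rose by 1.83 (SE 0.52, limma adjusted p = 0.0416), which did not pass without array 1, 2, 3 or 4 before or array 2 after hCG (0.063 to 0.105), with 32 added (0.114) or with a trended prior (0.0629). FOS, an early target, was at 12.46 ± 0.32 before and 11.39 ± 0.74 after hCG (SD, n = 4, limma adjusted p = 0.0582). FOS was lower by test without array 4 after hCG (0.0145), after repeated quantile normalization (0.0335) and with dim probe sets left out (0.043). All 3 measured targets of EGF-like ligands in cumulus expansion rose, with PTX3 at 6.74, TNFAIP6 at 5.43 and HAS2 at 2.75; these were known from earlier results of these data to rise. PTX3 was at 3.01 ± 0.36 before hCG (SD, n = 4), among low values, and with 32 added its increase was 4.47 (limma adjusted p = 0.000304).

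**Figure D4:**
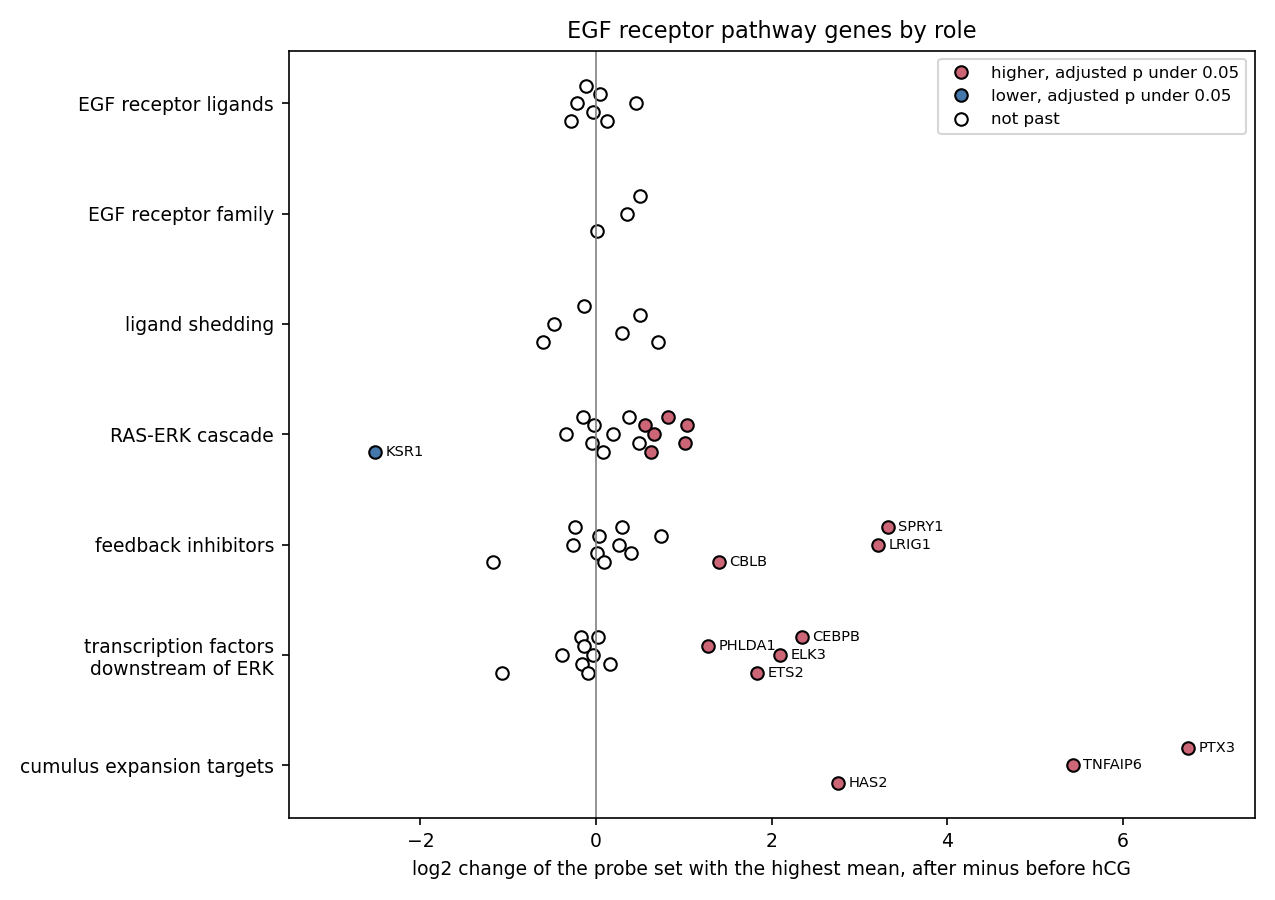
Log2 change after minus before hCG of 60 genes of the EGF receptor pathway, in rows by role, each gene as a point for its probe set with the highest mean signal. Red points were higher and the blue point, KSR1 at -2.52, lower at an adjusted p of 0.05; the rows of ligands, receptors and ligand shedding hold open points only.

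Marker lists of other cell types also differed between the groups in part. The mean of 8 surface epithelium markers was 6.09 to 6.32 before and 6.33 to 6.76 after hCG, where KRT18 rose by 2.25, by 1 of its 2 probe sets, and the other markers apart from KRT19 did not pass. The median change of the 8 was -0.05. KRT19 rose by 1.32 (limma adjusted p = 0.0361) by 1 of its 3 probe sets, with overlap between the groups, and did not pass in 7 of 14 alternatives, among them 32 added (0.0757) and without array 1, 3 or 4 before or array 1, 2 or 3 after hCG (0.0781 to 0.091). For 9 measured oocyte markers the mean was 5.32 to 5.51 before and 5.60 to 5.85 after hCG. There KIT, which other cells express too, rose by 3.07. The other 8 did not pass, with changes of -0.21 to 0.31, and the median change of the 9 was -0.10. The higher list mean thus rests on KIT. For 3 erythrocyte markers the mean was 8.70 to 9.28 before and 6.75 to 8.57 after hCG. There ALAS2 fell by 0.78 (limma adjusted p = 0.033), by 1 of its 2 probe sets, a call lost in 6 of 14 alternatives. The list means of leukocyte, endothelial, stromal and theca markers overlapped between the groups. CSF1R, a receptor of macrophages and the brightest leukocyte marker, fell by 2.09 (SE 0.22, limma adjusted p = 0.000187). Its means were 9.44 ± 0.29 before and 7.35 ± 0.42 after hCG (SD, n = 4), and it passed in all 14 alternatives. The other 8 measured leukocyte markers did not pass by their brightest probe sets, with changes of -0.49 (PTPRC) to 0.84 (CD68). The second probe set of CD68 fell by 0.62 (limma adjusted p = 0.0394). CYP17A1, an enzyme of androgen synthesis in theca cells, fell by 0.47 (limma adjusted p = 0.0404), by 1 of its 2 probe sets. It lost this call in 7 of 13 alternatives. The other 3 measured theca markers did not pass, with NR2F2 at 0.45, PTCH1 at 0.60 and TCF21 at 0.05. The median change of the 4 was 0.25. The part of these cells in the members' changes was not tested.

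The genes whose probe sets followed each member most closely over the 8 arrays were picked by Pearson correlation of log2 values, as a description, since the 2 groups alone give high values. Each gene stands here by its 1 best-correlated probe set, and its other probe sets were not compared. The 4 nearest to AREG were GNE (r = 0.9974), SERPINA3 (0.9972), HSD11B1 (0.9964) and ABHD5 (0.9956), which rose by 1.32 to 5.97 by that probe set. SERPINA3 has 5 probe sets and each of the others 1. The 4 nearest to SPRED2 MmugDNA.11998.1.S1_at were RAPGEF6, FRMD6, SRP68 and ZNF599 (r of 0.9866 to 0.9916), which rose by 1.09 to 1.97 by the probe set picked. These genes have 9, 2, 3 and 4 probe sets. The 4 nearest to BTC were C10H20orf202, TPI1, CCNT2 and BLOC1S1 (r of 0.9724 to 0.9911), and none of them passed the threshold (limma adjusted p of 0.0938 to 0.175). The genes nearest to BTC differed by 0.35 to 0.52. This contrast with AREG largely restates how the genes were picked. AREG changed by 6.77 with SDs of 0.24 and 0.90, BTC by 1.39 with SDs of 0.45 and 0.89.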

How the data were processed

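Total RNA was amplified in repeated rounds of cDNA synthesis and transcription, which favours 3' ends, and read on Affymetrix arrays, 1 per sample, per the labels' protocols. The authors deposited intensity values made with Affymetrix Expression Console and RMA, per the submitters' processing notes; neither version is given there. The deposited values are linear, so log2 was taken and nothing else changed. Of 52865 rows, 99 array controls were left out. In the platform annotation 24956 probe sets have 1 symbol, 361 have several and 27449 have no symbol; for 24616 the gene ID matched the RefSeq table, which supplied current symbols.

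Groups were compared with limma 3.58.1 (lmFit, eBayes) in R 4.3.3, with Benjamini-Hochberg adjustment over all 52766 probe sets and a threshold of 0.05; the procedure was tested on simulated data. Single values used exact two-sided permutation tests. Precision is limited by the number of arrays.

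The members and lists were chosen with earlier results of these data known. The text names every member probe set, all measured ligands and receptors, up to 4 genes per other list and direction by size, the brightest one not past, the brightest 3 markers per cell type (given here mostly as list means), and the 4 genes nearest each member. Alternatives were another normalization, centring, an added constant, a filter, a trended prior, the replicate block, the mean of probe sets and leaving out each array. Sequences were not analysed here.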

Additional observations from a re-analysis of the deposited data

Results flagged for a closer look

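Of 142 groups of 4 arrays examined, 5 held 1 array apart from the other 3, by a gap that is a large share of the group's range; chance gives about 1 in 20 such groups, and none of the member probe sets was among them. CEBPB after hCG read 11.48 on array 3 and 12.36 to 12.52 on the others (gap 0.846 of the range). PTPN11 after hCG read 11.68 on array 4 and 10.97 to 11.07 on the others (0.864). PTCH1, a theca list gene, read 5.79 on array 3 after hCG and 6.88 to 7.01 on the others (0.897). INHA read 13.77 on array 2 after hCG and 13.37 to 13.43 on the others (0.845), and UPK3B, a surface epithelium marker, 8.20 on array 2 after hCG and 7.81 to 7.84 on the others (0.929).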

How the results depend on the processing

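AREG kept its direction and its call in all 15 alternatives, and SPRED2 MmugDNA.11998.1.S1_at in all 14. BTC kept its direction, but its adjusted p passed the threshold in 5 of 15: it was 1.33 after repeated quantile normalization (adjusted p = 0.0526), 1.22 with 32 added (0.0977), 1.39 with a trended prior (0.0539), 1.39 with the replicate block (0.0607), 0.76 for the mean of its probe sets (0.0929), and 0.97 to 1.62 with 1 array left out. The decrease of the brightest SPRED2 probe set did not pass with a trended prior (-0.46, adjusted p = 0.06) or the replicate block (-0.46, 0.0629), became 0.28 for the mean of probe sets (0.07), since that mean includes the probe set that rose, and was -0.52 to -0.40 with 1 array left out. Of the 6 member probe sets, 2 passed with the trended prior and 2 with the replicate block, and 2 to 4 with 1 array left out. For BTC and SPRED2 the cause of the other losses was not tested.

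The labels do not say that the replicate numbers pair the arrays, so the replicate block is given as an alternative. Same-numbered arrays had correlations of deviations from the group means of 0.00432, 0.152, 0.0264 and -0.0145. Those of differently numbered arrays were -0.204 to 0.16. So few values cannot exclude a pairing. Some values near 0 that did not pass turned sign without passing. With 1 array left out BTC MmuSTS.641.1.S1_at ranged from -0.04 to 0.25. The same was seen for NRG3 (0.01 after quantile normalization, 0.004 after median centring, -0.08 to 0.02 with 1 array left out) and PECAM1 (-0.0038 after quantile normalization, -0.19 to 0.33), and with 1 array left out for NRG4 (-0.04 to 0.12), ERBB3 (-0.08 to 0.07), SOCS5 (-0.04 after quantile normalization, -0.05 to 0.18) and TYROBP (-0.33 to 0.42). With 32 added, the difference between the SPRED2 probe sets of 1 design sequence passed (0.33, exact permutation, adjusted p = 0.0286).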
